A study of Saccharomyces cerevisiae with 10 samples.

Results

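The mitochondrial ribosomal protein mRNAs are described here from 60 nuclear genes of Saccharomyces cerevisiae, picked by systematic name from the 6717 yeast genes measured, with symbols of the MRPL, MRPS, MRP and RSM series (YDR116C for MRPL1, YNR036C for MRPS12 and YKL155C for RSM22, for example). In the RefSeq annotation of the R64 genome, 34 of them encode proteins of the large subunit of the mitochondrial ribosome and 25 proteins of the small subunit, on 14 chromosomes. These 60 genes and their mRNAs are called the members. The remaining gene, RSM22, is annotated as a tRNA methyltransferase and not as a ribosomal protein. The annotation names 79 mitochondrial ribosomal proteins in all, and the 20 outside these 60 genes (MRP10, MRP49, MRPL15, MRPL39, MRP35 and MRP2 among them) are used below only for comparison.

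The study followed RNA after transcription was shut off in an rpb1-1/caf1Δ strain (MATa, with auxotrophic alleles of URA3, HIS3 and LEU2). The rpb1-1 allele makes the largest subunit of RNA polymerase II temperature-sensitive. In the study's strain list, caf1Δ is a replacement of CAF1 by HIS3. CAF1, also called POP2, encodes a deadenylase of the Ccr4-Not complex, which shortens poly(A) tails. Cells in mid-log phase at 24°C were shifted to 37°C, and 10 libraries were made, 1 each at 0, 3, 6 and 8 min, then at 10, 15, 20 and 30 min and last at 45 and 60 min, so no time point has a replicate. The shift is at once the shut-off and a heat stress, and the effects of both cannot be told apart. The growth protocol in the labels mentions rpb1-1 alone and another strain name, whereas the genotype label of every library gives both mutations and is followed here. POP2 was at 0.887 scaled FPKM at 0 min and at no more than that in any later library, with an estimated 15.9 fragments over all 10 libraries. HIS3 was listed at 0 FPKM in all 10 libraries, although the strain list places it at CAF1, and the reason was not tested. By the genotype label all 10 libraries carry both mutations, and rpb1-1 cells with CAF1 were not analysed here, so none of the values measures what the loss of Caf1 does.

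Yeast mitochondria translate a handful of proteins, most of them subunits of the respiratory chain and the ATP synthase, on their own ribosomes. The rRNAs of those ribosomes come from mitochondrial DNA, whereas nearly all of the proteins come from nuclear genes, are made in the cytosol and are imported. Puf3, an RNA-binding protein of the Pumilio family, is known to bind a short element in the 3′ UTRs of nuclear mRNAs for mitochondrial proteins, and those for the mitochondrial ribosome are prominent among its targets. In cells growing on glucose, Puf3 is known to promote deadenylation and decay of bound mRNAs, in part through the Ccr4-Not complex.

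The Puf3 element was searched for as TGTANATA (N is any base) on the coding strand in the 200 bases after each stop codon, a window that can run past the end of the 3′ UTR, since UTR ends are not annotated. The motif was present in 59 of the 60 genes (98.3%), against 745 of the 5360 other named genes (13.9%) and 14.8% of all 5420 named genes in windows of that length. RSM22 was the only gene of the 60 without a match (it was singled out after its values were seen). On the other strand of the same windows, 11 of the 60 genes (18.3%) and 13.7% of all genes had a match. A match is a description of the sequence, and binding was not measured. Shown here, because their mRNAs span the range of decay described below, are the elements of the members with the shortest half-life (MRPL17 and RSM25), the steepest slope (MRPL8), the longest half-life (MRPL51 and MRPS18) and the weakest slope (MRPL28, with 2 matches), followed by RSM19 with its 3 matches and the only member element with G at N (MRPL3). The motif is in capitals, flanking bases are in lower case, and coordinates are those of R64.
MRPL17 (chrXIV:171334-171363, minus strand): cgtcaatcacaTGTAAATAtcattaaatga
RSM25 (chrIX:187933-187962, minus strand): cctaaccaaccTGTATATAattaaaaacaa
MRPL8 (chrX:315714-315743, minus strand): gtgtattccctTGTAAATAtatagatgaca
MRPL51 (chrXVI:730250-730279, plus strand): ataattatactTGTATATAtaatttggggc
MRPS18 (chrXIV:58860-58889, plus strand): atatatattcgTGTAAATAattcgattttt
MRPL28 site 1 (chrIV:1386537-1386566, plus strand): ctgtctcctgcTGTAAATAactgatgatca
MRPL28 site 2 (chrIV:1386593-1386622, plus strand): atataattataTGTACATAgacatataaag
RSM19 site 1 (chrXIV:695022-695051, minus strand): gggatctagTGTATATAgatttctagatga
RSM19 site 2 (chrXIV:694996-695025, minus strand): atgatatatcaTGTAAATAagatcaagcca
RSM19 site 3 (chrXIV:694968-694997, minus strand): cagactcgggcTGTATATAtatatatatat
MRPL3 site 1 (chrXIII:323054-323083, plus strand): gtttgccatttTGTAGATAgagaactcctt

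The search fixed every base of the core except N, which differs among the sites shown. The nearest match began a median of 51 bases after the stop codon (8 to 139 bases), and in 55 of 59 genes (93.2%) it began within 100 bases. In other genes with a match the median was 58 bases, and 74.6% began within 100 bases. Over all 73 matches in the 60 genes, N was A in 45.2%, T in 30.1%, C in 23.3% and G in 1.37%, whereas N was T in 51.4% and A in 27.2% of the 808 matches in other genes. A C 2 bases before the core, a feature known from Puf3 binding studies, preceded 47 of the 73 matches (64.4%), against 25.3% of matches in other genes. That longer form was found in 47 of the 60 genes, against 4.54% of all genes. No match of the 60 genes lay inside another annotated coding gene. The same search found the motif in 20 of the 20 other annotated mitochondrial ribosomal proteins and in 12 of 12 mitochondrial tRNA synthetases, which charge tRNAs in the organelle. It was found in 7 of 9 mitochondrial translation factors (all but MEF2 and FMT1) and in 14 of 18 translational activators, which each promote translation of particular mitochondrial mRNAs. By contrast, it was in 3 of 29 nuclear genes of the respiratory chain and ATP synthase (COX8, ATP1 and ATP18) and in 6 of 137 cytosolic ribosomal protein genes.

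**Figure D1:**
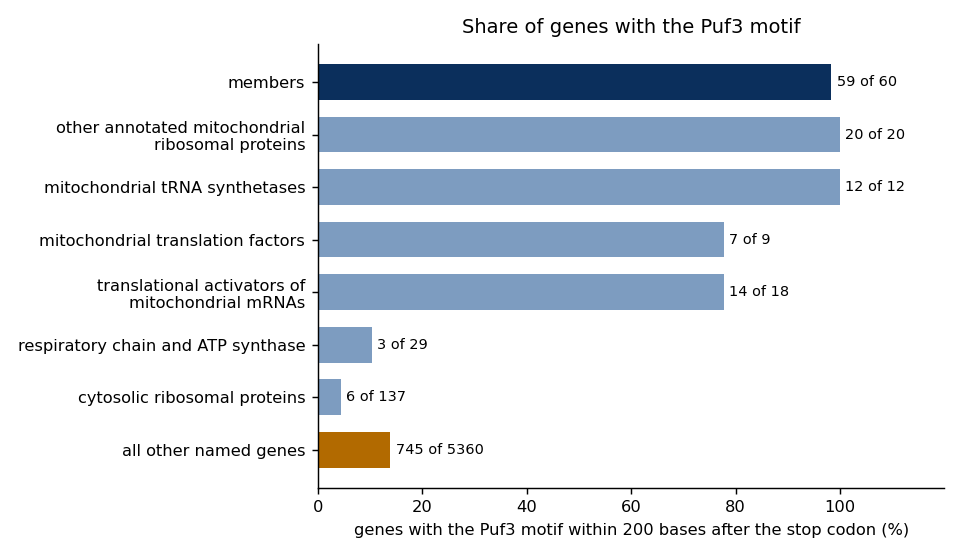
Bars give the percentage of genes in each group with the Puf3 motif in the 200 bases after the stop codon, with the numbers of genes beside them. The mitochondrial ribosomal protein members (59 of 60) and the groups of the mitochondrial translation machinery stand at 77.8% or more, and the other named genes at 13.9%.

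All 60 mRNAs were measured in every library, and all passed the filter on low values. Values are FPKM, that is, numbers of sequenced fragments corrected for the length of the transcript and the depth of the library, divided by the summed level of ERCC spike-in RNAs in the library relative to 0 min. The spike-ins were added to extracted RNA, so a scaled level is relative to the RNA put into a library and not to the number of cells. Changes in cell number and in total RNA per cell were not measured. At 0 min the scaled FPKM of the members had a median of 99.0, against 39.9 for all named genes, and ranged from 32.6 for RSM22 to 339 for MRPL36. The 34 large-subunit mRNAs had a median of 98.1 and the 25 small-subunit mRNAs one of 104. From the steps between low FPKM values, a member mRNA was estimated to rest on a median of 210.4 fragments at 0 min (36.7 to 635) and 95.5 at 60 min (14.5 to 369). The estimate takes 192 bases off each coding length, an offset fitted on genes of at least 900 coding bases. It is therefore uncertain for short members, the lowest values included.

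The mitochondrial ribosomal protein mRNAs declined together after the shift. In percent of the 0 min level, their median stood at 81.8% after 3 min, 67.7% after 6 min, 53.1% after 8 min and 60.3% after 10 min. By 15 min it had come to 44.3%, and later medians were 41.1% (20 min), 33.7% (30 min), 36.5% (45 min) and 30.5% (60 min). Through 6 min this was the course of all genes, whose median was 82.2% at 3 min and 66.8% at 6 min. From 8 min on the members were lower in each library, with 60.3% against 65.9% at 10 min and 30.5% against 35.8% at 60 min. Set against the 2778 genes whose 0 min level lay within the range of the members, a group chosen after seeing the data, the ratio of the medians was 0.878 at 10 min and 0.824 at 60 min. With 1 library per time point, the difference between the medians at a single time has no test.

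The levels of the members were spread less widely than those of all genes. At 10 min the quartiles of their levels were 52.3% and 67.8%, against 48.9% and 85.6% for all genes. At 60 min the quartiles were 25.8% and 37.8%, against 22.0% and 56.4%. All genes include many that were less abundant at 0 min (median 39.9 scaled FPKM, against 99.0 for the members). Quartiles of levels were not taken for genes within the range of the members, so a part played by abundance was not tested. The level was below that at 0 min in all 9 later libraries for 55 of the 60 mRNAs (91.7%), against 75.6% of all genes. The exceptions were MRPL25, MRPS8, MRPS18 and RSM18, each below 0 min in 8 of 9 libraries, and MRPL28, below it in 4. The rebounds at 10 and 45 min in the plot of levels over time were shared with the rest of the transcriptome. Between 8 and 10 min 47 members went up, as did 81.8% of all genes, and between 30 and 45 min 43 members and 73.9% of all genes did. These steps move with the spike-in factors of the libraries, which were 1.25 and 1.05 in the libraries at 8 and 10 min and 1.36 and 1.23 in those at 30 and 45 min, and a lower factor gives higher scaled levels. In the deposited FPKM without scaling the median ratio of the later to the earlier library was 0.965 from 8 to 10 min, with 19 members and 46.8% of all genes up, and 0.995 from 30 to 45 min, with 30 members and 54.4% of all genes up.

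**Figure D2:**
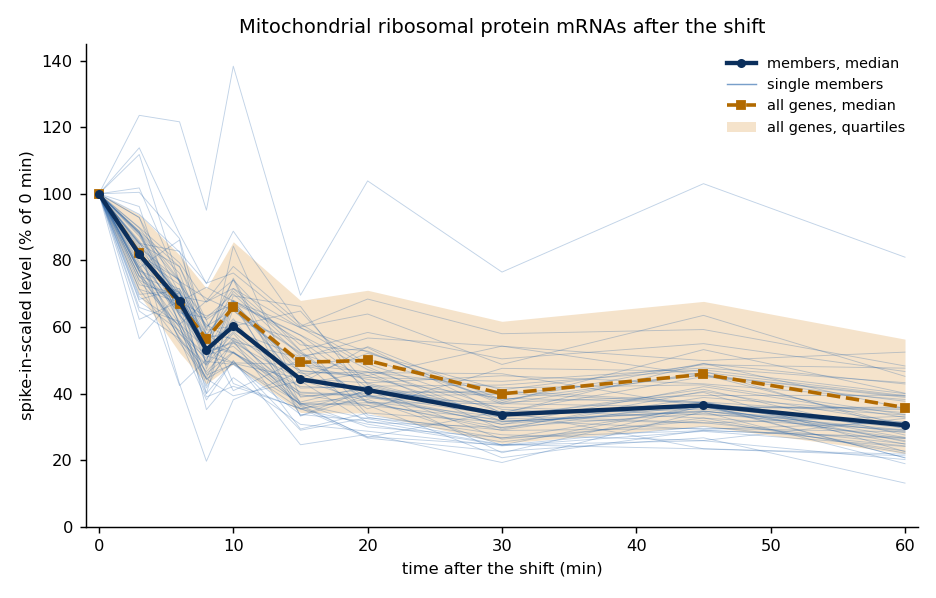
Spike-in-scaled level in percent of 0 min (vertical axis) against time after the shift in min (horizontal axis) for each of the 60 mRNAs (thin lines), with the median of the members and the median and quartiles of all genes. The median of the members is at 30.5% at 60 min, below that of all genes at 35.8%, and the line that stays highest is MRPL28.

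Slopes over time were tested for each mRNA with limma on log2(scaled FPKM + 1), fitted to all 5163 genes with a mean of at least 1, with Benjamini-Hochberg adjustment over all of them and a threshold of 0.05. Of the 60 members, 55 fell (91.7%), 0 rose and 5 did not pass. Of all genes tested, 57.9% fell and 1.65% rose, and of the genes within the range of the members at 0 min 64.7% fell. The median slope of the members was -0.24 log2 units per 10 min, against -0.17 for all genes. All 60 slopes were negative, between -0.38 and -0.07. With each library left out in turn, between 51 (without 0 min or without 3 min) and 56 members fell, and 50 fell in every such fit. The call of MRPL51 was lost without the 60 min library (limma, adjusted p = 0.052), that of RSM28 without 0 or 3 min (adjusted p = 0.054 and 0.060) and that of MRPL24 without 0, 3 or 60 min (adjusted p of 0.056 to 0.073). MRPL22 was lost without 0, 3, 6, 20, 30, 45 or 60 min (adjusted p of 0.050 to 0.092), and RSM25 without 0, 3, 6, 10, 30 or 45 min (adjusted p of 0.052 to 0.12). Scaling moved the count of members further, and it moves all genes at once. Scaling to equal totals of yeast FPKM, which raises the median level of all genes at 60 min by 0.93 on the log2 scale, left 25 members that fell and 0 that rose, with 1471 of all genes falling and 679 rising. Without any scaling, which raises that median by 0.51, 48 members fell, with 44.7% of all genes falling and 5.40% rising.

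**Figure D3:**
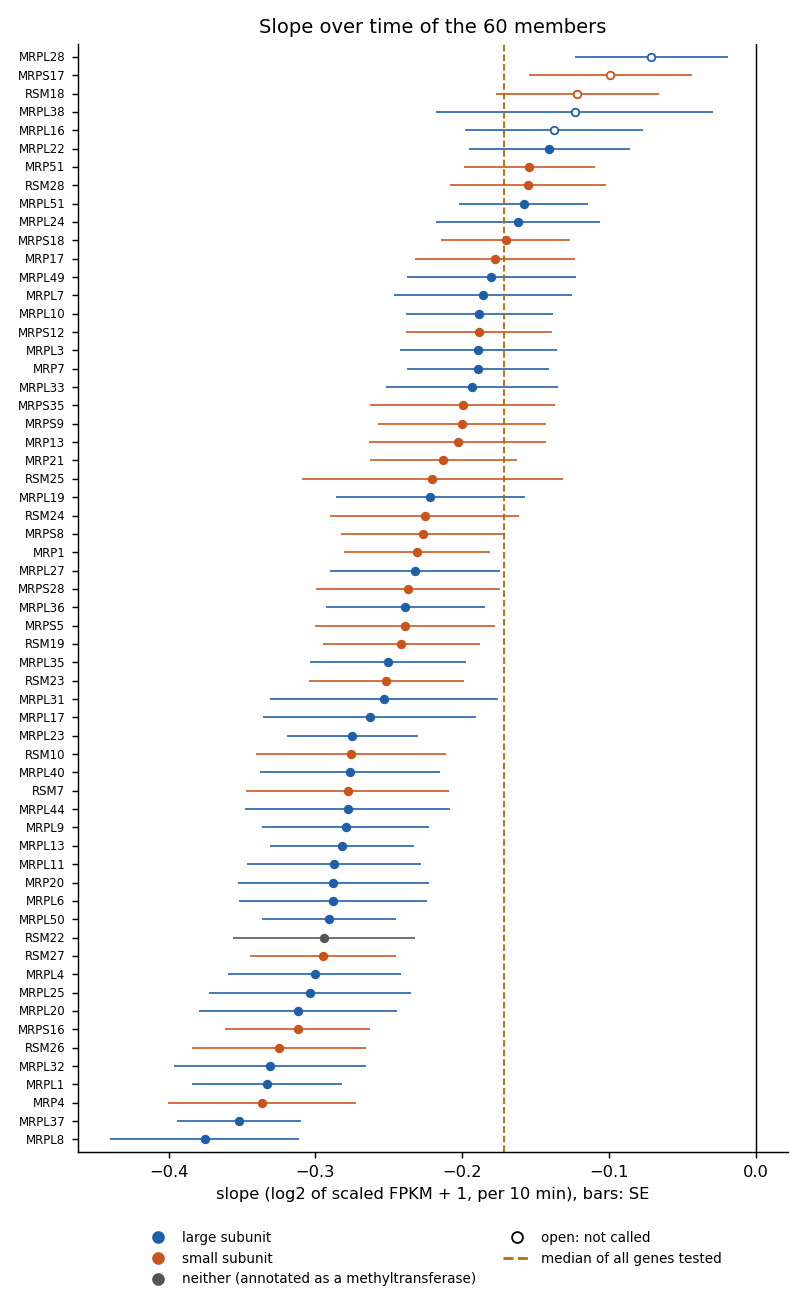
Slope over time of each of the 60 mRNAs (log2 of scaled FPKM + 1, per 10 min) with its standard error from the limma fit, coloured by subunit, with open symbols for the 5 that did not pass the test. All slopes lie left of 0, from -0.07 for MRPL28 to -0.38 for MRPL8, and the dashed line marks the median of all genes at -0.17.

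Members fell in both subunits and in each family of ribosomal proteins. Of the large-subunit mRNAs, 31 of 34 fell, with median levels of 63.8% at 10 min and 29.2% at 60 min. Of the small-subunit mRNAs, 23 of 25 fell, with medians of 56.7% and 31.4%. Ribosomal protein names in the annotation carry a letter for the family, u for proteins shared by ribosomes of all kingdoms, b for those shared with bacteria and m for those of mitochondria. Of the 26 mRNAs for universal proteins 23 fell, of the 12 for bacterial-type proteins 11 and of the 21 for mitochondrial proteins 20. The median level at 60 min was 30.7% in the universal, 35.3% in the bacterial-type and 30.3% in the mitochondrial family. These medians are descriptions, and differences between them were not tested.

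Half-lives were obtained by fitting each relative level to an exponential decay from 1 at 0 min, and were kept where the average absolute residual was at most 0.14 and the half-life at most 60 min. They were kept for 52 of the 60 members (86.7%), against 53.2% of all genes fitted and 61.7% of those within the range of the members at 0 min. A stricter residual limit of 0.07 kept 4 members and 11.2% of all genes fitted. The median half-life was 16.6 min for the members, with quartiles of 13.3 and 19.8 min, and 15.8 min for all genes that passed, with quartiles of 9.22 and 27.3 min. The order of the medians depended on which genes were set beside the members. The median was 17.5 min for genes within the range of the members at 0 min, and with no limit of 60 min it was 16.6 min for the members and 19.4 min for all genes. The quartiles of the members lay closer together than those of all genes that passed. Genes within the range of the members at 0 min had quartiles of 10.9 and 28.6 min. Large-subunit mRNAs had a median of 16.9 min and small-subunit mRNAs one of 16.4 min. The standard errors below come from the scatter around the fit and do not stand for replicates.

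A single exponential described the time course only in part. At 45 min and at 60 min all 52 members with a half-life lay above the fitted curve, at medians of 2.42 and 3.71 times the fitted level, and at 8 min all 52 lay below it. Of all genes with a half-life, 99.1% lay above the curve at 45 min and 94.4% at 60 min, but only 6.96% at 8 min. Their medians at 45 and 60 min were 2.25 and 3.12 times the fitted level, so these departures were largely shared with all genes. Most of the loss came early. At 20 min the members were at a median of 41.1% of 0 min, against 50.2% for all genes, and from then to 60 min they kept a median of 76.1% of their 20 min level, against 74.4% for all genes. The level at 60 min was below that at 20 min for 58 of the 60 members and for 81.6% of all genes. Fits to 0 to 20 min gave a median half-life of 11.8 min for 59 members, and a log-linear fit to all 10 libraries gave 37.6 min for 48 members.

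The most abundant mRNAs of the large subunit at 0 min were those for MRPL36, MRPL37 and MRPL33. MRPL36 (YBR122C, chrII:483970-484503, minus strand) encodes bL31m, whose bacterial counterpart bridges the subunits. Its scaled FPKM in time order was 339, 274, 197, 171, 198, 141, 143, 115, 122 and 101. Every later library was lower than 0 min, its slope was -0.24 ± 0.05 (SE) log2 units per 10 min (limma, adjusted p = 0.0028) and its half-life was 15.3 ± 2.90 min. MRPL37 (YBR268W, chrII:741299-741616, plus strand), for the mitochondria-specific protein mL54, had 284, 211, 192, 205, 193, 170.2, 136, 89.8, 98.0 and 53.9 scaled FPKM. It was among the steepest as well, with a slope of -0.35 ± 0.04 (limma, adjusted p = 0.00031) and 19.0% of its 0 min level left at 60 min. Its average absolute residual from the exponential curve, 0.061, was the smallest of the 60, although its levels at 45 and 60 min lay above the curve. Its half-life was 19.6 ± 2.25 min, and 17.9 to 20.4 min with each later library left out. MRPL33 (uL30m), whose coding sequence of 261 bases is the shortest of the 60, was at 248, 193, 213, 117, 172, 164, 97.3, 98.4, 113 and 96.9. Its slope was -0.19 ± 0.06 (limma, adjusted p = 0.014). FPKM of coding sequences this short depend strongly on the length correction, and 8 members have fewer than 400 coding bases.

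In the small subunit MRPS12, RSM19 and MRPS9 were highest at 0 min. MRPS12 (YNR036C, chrXIV:694361-694822, minus strand) encodes uS12m, the counterpart of a bacterial protein at the decoding centre. It had 325, 287, 225, 219.8, 233, 194, 171, 121, 173 and 130.5 scaled FPKM, and the library at 45 min stood above those at 20 and 30 min. The slope was -0.19 ± 0.05 (limma, adjusted p = 0.0064) and the half-life 27.3 ± 4.81 min, the third longest in the small subunit. Its neighbour on chromosome XIV, RSM19 (YNR037C, chrXIV:695052-695327, minus strand), encodes uS19m of the small-subunit head and had 276, 197, 186, 175, 184, 127, 128, 81.0, 112 and 86.1 scaled FPKM. RSM19 is the only member with 3 motif matches, and its slope of -0.24 ± 0.05 (limma, adjusted p = 0.0026) was close to the median of the members. MRPS9 (uS9m), the member with the most estimated fragments, had 242, 199, 136, 118, 137, 95.1, 97.2, 98.8, 90.8 and 81.4 scaled FPKM (limma, adjusted p = 0.01). It fell to 33.6% of its 0 min level at 60 min, with little change after 15 min.

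The fastest declines were seen in both subunits. MRPL8 (YJL063C, chrX:315759-316475, minus strand), for bL17m, had 72.8, 53.8, 43.7, 28.4, 30.7, 25.9, 19.4, 16.5, 19.5 and 9.56 scaled FPKM. It had the steepest slope of the 60, at -0.38 ± 0.06 (limma, adjusted p = 0.00064), a half-life of 9.16 ± 1.37 min, and 13.1% of its 0 min level at 60 min, the lowest of any member. MRPL17 (mL46), with a half-life of 9.13 ± 1.82 min, had 97.2, 60.5, 65.7, 34.2, 43.5, 29.9, 27.9, 23.6, 27.9 and 23.4 scaled FPKM. Most of its loss was over by 8 min, and its slope was -0.26 ± 0.07 (limma, adjusted p = 0.0084). MRPL31 (mL60) had a half-life of 11.4 ± 2.47 min. MRPL1 (uL1m), whose bacterial counterpart forms a flexible stalk near the site where tRNAs leave, declined more evenly, with 82.0, 68.8, 60.5, 47.3, 55.8, 45.8, 34.3, 21.6, 26.2 and 18.6 scaled FPKM and a slope of -0.33 ± 0.05 (limma, adjusted p = 0.0004).

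Among small-subunit mRNAs, RSM25 (YIL093C, chrIX:187990-188784, minus strand) encodes mS23 and had the shortest half-life of all 52, at 9.09 ± 1.92 min. Its levels were 52.9, 41.7, 29.8, 20.2, 26.4, 13.0, 14.7, 10.2, 18.3 and 16.2 scaled FPKM. The low point was at 30 min and later libraries were higher, and its slope of -0.22 ± 0.09 was just past the threshold (limma, adjusted p = 0.048) and passed in 4 of 10 fits with a library left out. RSM26 (YJR101W, chrX:618234-619034, plus strand), for mS42, related in fold to superoxide dismutase, had 96.5, 66.7, 58.6, 47.9, 47.1, 32.6, 30.6, 23.8, 22.6 and 20.6 scaled FPKM. It was lower in each library than in the one before, those at 10 and 45 min included, with a slope of -0.33 ± 0.06 (limma, adjusted p = 0.0009) and a half-life of 10.5 ± 1.55 min. MRP4 (uS2m) fell with the steepest small-subunit slope, -0.34 ± 0.06 (limma, adjusted p = 0.0011), and MRPS16 (bS16m) with -0.31 ± 0.05 (limma, adjusted p = 0.00046). RSM24 (mS35) had a half-life of 11.3 ± 2.34 min.

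The longest half-lives that passed the filters were those of MRPS18, MRPL51 and MRP51. MRPS18 (YNL306W, chrXIV:58155-58808, plus strand), for uS11m, had 153, 174, 135, 112, 136, 92.3, 105, 88.8, 90.7 and 74.0 scaled FPKM. It was above its 0 min level at 3 min, kept 48.3% of it at 60 min, and fell with a slope of -0.17 ± 0.04 (limma, adjusted p = 0.0059) and a half-life of 44.5 ± 7.87 min. MRPL51 (mL43, 112, 105, 92.1, 81.7, 85.1, 66.9, 71.3, 54.4, 70.9 and 50.4 scaled FPKM) kept 45.2% at 60 min, with a half-life of 38.2 ± 6.38 min. Its coding sequence overlaps an uncharacterized gene on the opposite strand by 323 bases, and how strand was used in counting is not given in the sources used here. MRP51 (YPL118W, chrXVI:326628-327662, plus strand), for bS1m, known for a role in the translation of some mitochondrial mRNAs, had 146, 131, 115, 98.2, 108, 77.0, 85.0, 73.4, 80.1 and 67.9 scaled FPKM. Its slope was -0.15 ± 0.04 (limma, adjusted p = 0.011) and its half-life 33.0 ± 5.98 min. MRP7 (bL27m), whose bacterial counterpart reaches towards the peptidyl transferase centre, had a half-life of 24.1 ± 4.45 min and fell with a slope of -0.19 ± 0.05 (limma, adjusted p = 0.0054). The 3 longest half-lives of each subunit were those of MRPL51, MRP7 and MRPL33 and of MRPS18, MRP51 and MRPS12, and these 6 mRNAs kept between 39.2% and 48.3% of their 0 min level at 60 min. MRP17, MRPS8 and MRP21 of the small subunit had half-lives of 24.4 ± 4.88 min, 24.1 ± 4.15 min and 23.7 ± 3.95 min, within the standard errors of those of MRP7 and MRPL33, and kept 42.9%, 37.7% and 35.5%.

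The 5 mRNAs whose slope did not pass were those of MRPL28, MRPL38, MRPL16, MRPS17 and RSM18, and each was left without a half-life because its residual was over the limit. The residuals of MRPL22, MRPL24 and MRPL49, which fell, were also over it. MRPL28 (YDR462W, chrIV:1386073-1386516, plus strand) encodes mL40 and had 46.5, 57.5, 56.6, 44.2, 64.4, 32.4, 48.3, 35.6, 47.9 and 37.7 scaled FPKM. Its libraries at 3, 6, 10, 20 and 45 min lay above that at 0 min, 81.0% of the 0 min level was left at 60 min, and its slope was -0.07 ± 0.05 (limma, adjusted p = 0.24). Its 0 min value rests on an estimated 47.6 fragments, and every relative level of this mRNA rests on it. MRPS17 (uS17m) was at 99.0, 64.2, 56.0, 44.4, 59.7, 44.3, 51.6, 40.7, 48.2 and 47.2 scaled FPKM. It had come down by 8 min and then stayed between 40.7 and 59.7, with a slope of -0.10 ± 0.06 (limma, adjusted p = 0.13) and all later libraries lower than 0 min. RSM18 (bS18m), at 139, 141, 102, 72.7, 77.1, 70.3, 78.6, 75.1, 69.2 and 72.7, likewise levelled off by 8 min and kept 52.5% at 60 min (limma, adjusted p = 0.074). MRPL16 (uL16m, 198, 152, 113, 92.5, 109.6, 74.4, 83.8, 84.5, 93.5 and 79.4 scaled FPKM, limma adjusted p = 0.065) had a similar course. MRPL38 (uL14m) had its lowest value at 8 min, with 89.4, 75.6, 38.3, 17.6, 34.1, 41.6, 31.7, 42.5, 41.7 and 26.2 scaled FPKM and a slope of -0.12 ± 0.09 (limma, adjusted p = 0.27). In the fit to 0 to 20 min 57 members fell, all 55 included, against 59.7% of all genes.

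**Figure D4:**
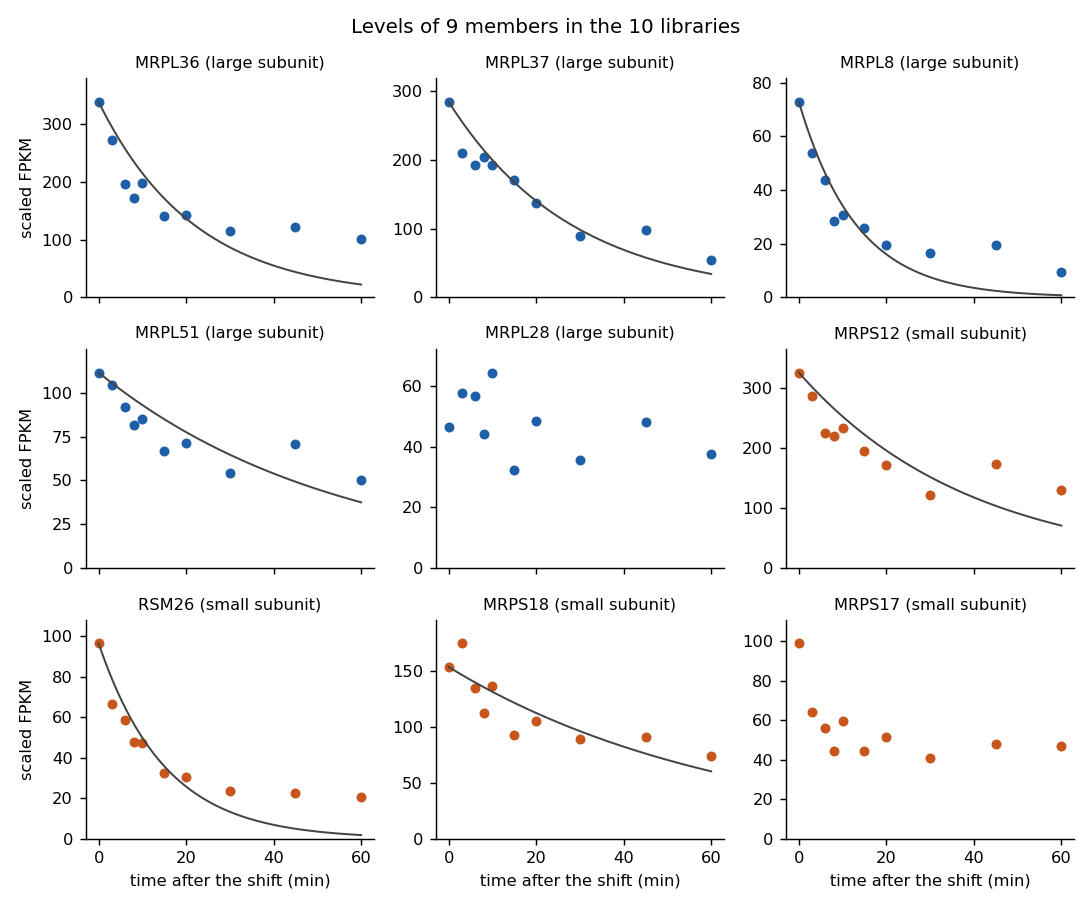
Spike-in-scaled FPKM (vertical axes, each from 0) against time after the shift in min for 9 members in the 10 libraries, with the fitted exponential decay where the half-life passed the filters (large subunit blue, small subunit orange). MRPL8 and RSM26 were at 9.56 and 20.6 scaled FPKM at 60 min, the late points of most mRNAs lie above the curve, and MRPL28 and MRPS17 have no curve.

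The number and form of the motif were set beside the levels. The 13 members with 2 or more matches (MRPL1, MRPL3, MRPL19, MRPL24, MRPL28, MRPL33, MRPL36, MRPL49, MRPS5, MRPS16, MRP1, RSM19 and RSM24) had medians of 66.8% (10 min) and 31.4% (60 min) of the 0 min level, and 12 of them fell. The 46 members with 1 match had medians of 56.6% and 29.8%, and 42 fell. The 47 members with a C 2 bases before the core had medians of 58.9% at 10 min and 29.3% at 60 min, and 45 fell. In the 12 with the core but no such C the medians were 66.3% and 38.7%, and 9 fell. The differences between these groups were not tested. RSM22, the mRNA without a match, had 32.6, 28.4, 22.1, 15.9, 18.9, 11.6, 12.5, 7.99, 9.81 and 7.92 scaled FPKM and was the least abundant of the 60 at 0 min. It fell as well, with 58.1% of the 0 min level at 10 min, a slope of -0.29 ± 0.06 (limma, adjusted p = 0.0019) and a half-life of 13.3 ± 2.02 min. With 59 members on one side and 1 on the other, levels with and without the motif cannot be compared within the 60.

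Outside the 60, the 20 other annotated mitochondrial ribosomal proteins had median levels of 64.3% at 10 min and 33.1% at 60 min, and 17 of them fell. The 29 mRNAs of the respiratory chain and ATP synthase, whose products assemble with those of mitochondrial translation, had medians of 84.2% at 10 min and 48.9% at 60 min, and 20 fell. Mitochondrial translation factors fell in 6 of 9 cases and 1, MEF2, rose (limma, adjusted p = 0.044), mitochondrial tRNA synthetases fell in 8 of 12 and translational activators in 8 of 18. Cytosolic ribosomal protein mRNAs were at 84.1% at 10 min and 15.9% at 60 min, with 134 of 135 tested falling, so they were above the members early and below them late. The 690 other genes with the motif and an FPKM of at least 10 at 0 min had medians of 63.4% at 10 min and 35.5% at 60 min, against 66.2% and 35.4% in the 3908 genes without it. Of those 690, 60.1% fell, against 60.6% of the 3908. The 184 of the 690 with a C 2 bases before the core had medians of 61.2% and 32.7%, and 70.7% of them fell. Of the 23 of the 690 with mitochondrial in the product name, 82.6% fell, at medians of 63.3% and 33.6%. These 23 include the 20 other annotated mitochondrial ribosomal proteins given above and are largely the same genes. Differences between these groups were not tested.

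The 6 mRNAs listed as Puf3 targets of earlier work outside the mitochondrial ribosome had median levels of 67.7% at 10 min and 31.3% at 60 min, and 5 of them fell. COX17, which encodes a copper chaperone for cytochrome c oxidase, has 2 motif matches and had 336, 360.0, 231, 271, 325, 235, 267, 157, 185 and 205 scaled FPKM (limma, adjusted p = 0.029). TUF1, for the mitochondrial elongation factor Tu, had 243, 227, 211, 189, 231, 171, 171, 119, 140.3 and 111 (limma, adjusted p = 0.0026). CYT2, for cytochrome c1 heme lyase, had 74.4, 62.5, 56.0, 51.5, 52.7, 35.1, 42.5, 38.7, 37.0 and 45.2 and did not pass (limma, adjusted p = 0.08). BCS1, whose product inserts the iron-sulfur protein into complex III, fell (limma, adjusted p = 0.00031) and was at 52.2% at 10 min and 8.28% at 60 min. COX10, for an enzyme of heme A synthesis, was at 29.1% and 12.3% (limma, adjusted p = 0.0038), and PET117, for an assembly factor of cytochrome c oxidase, at 64.6% and 16.8% (limma, adjusted p = 0.0005). At 60 min COX17, CYT2 and TUF1 were above the median of the members (60.7% for CYT2 and 45.7% for TUF1), and the other 3 were below it. COX17 and TUF1 were at 96.7% and 94.9% of 0 min at 10 min, above 59 of the 60 members (MRPL28 was higher). The COX17 coding sequence of 210 bases is shorter than that of any member. Its estimate of 203 fragments over all 10 libraries is uncertain, because the length offset was fitted on genes of at least 900 coding bases. PUF3 mRNA, without the motif, had 50.4, 37.8, 33.5, 31.1, 35.4, 25.8, 25.4, 19.2, 23.8 and 16.5 scaled FPKM and fell (limma, adjusted p = 0.0027).

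**Figure D5:**
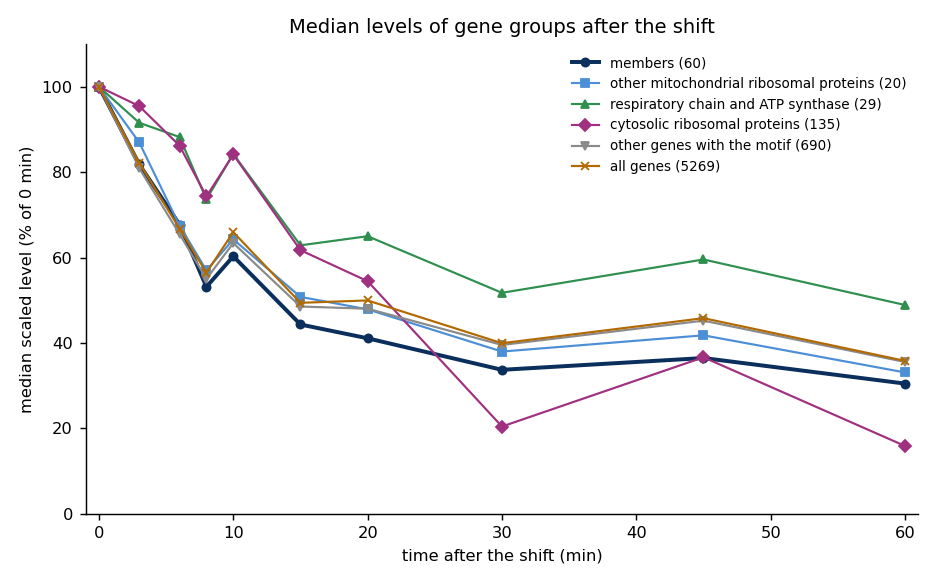
Median scaled level in percent of 0 min (vertical axis) against time after the shift in min (horizontal axis) for the members and 5 other groups of genes, with the number of genes in parentheses. The members end at 30.5%, the other mitochondrial ribosomal proteins at 33.1%, the respiratory chain and ATP synthase at 48.9% and cytosolic ribosomal proteins at 15.9%.

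Codon content, which the study set against decay, was close to that of all genes. The study's optimal (OPT) and non-optimal (NON-OPT) reporters were used to class the codons of 9 amino acids. The study's own bins rest on an earlier published definition of optimality, so the ranges below are not those bins. The share of OPT codons among both classes had a median of 52.2% in the members (41.9% to 67.5%). It was 52.7% in all genes and 55.5% in genes within the range of the members at 0 min. The 17 members with a share of 40 to 49% had median levels of 58.1% at 10 min and 30.3% at 60 min, against 57.1% and 35.5% in other genes of that range. The 35 members from 50 to 59% had 60.3% and 32.9%, against 62.5% and 35.7%. The 8 members from 60 to 69% had 67.2% and 25.2%, against 75.9% and 39.9%. At like codon content the members were below other genes at 60 min in each of the 3 ranges. At 10 min they were slightly above other genes from 40 to 49% and below them in the higher ranges. None of these differences was tested. Among the 60 mRNAs, which share the same 10 libraries and spike-in factors, Spearman's rho of the level at 60 min was 0.26 with the scaled FPKM at 0 min, 0.01 with coding length, 0.10 with OPT share and -0.03 with the distance from stop codon to motif (n = 59 for the last).

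Across the 10 libraries, an estimated 2303000 to 5081000 fragments were counted, fewest at 15 min, and 73 of 92 spike-ins were detected. Relative to 0 min the spike-in factors of the later libraries lay between 1.05 and 1.42, and the summed scaled FPKM of all yeast genes was 52.6% of 0 min at 60 min. MRPL19 and MRP4 each also overlap another annotated gene, by 113 bases on the same strand and by 2 bases on the opposite strand.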

How the data were processed

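In the rpb1-1/caf1Δ strain, 10 libraries were sequenced, 1 per time point. They were made with stranded kits, and the authors aligned reads to SacCer2 with Bowtie (0.12.7 in the submitters' processing notes) and deposited FPKM values from Cufflinks (1.3.0). The study names kits for total RNA and for mRNA, and its text does not say which made these libraries. If poly(A) RNA was selected, loss of an mRNA and shortening of its tail cannot be told apart in these levels. How strand was used in counting is not given in the sources used here.

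FPKM values were scaled by the ERCC spike-in sums of the libraries, with 0 min as 1. By systematic name, 6025 of 6717 yeast genes had an entry in RefSeq's R64 annotation, and 5420 nuclear protein-coding genes with a described product were kept. Coordinates and sequences come from R64, a later build than SacCer2, and were linked by gene name only. Slopes over time in min were fitted with limma 3.58.1 (R 4.3.3) on log2(scaled FPKM + 1), for 5163 genes with a mean of at least 1. The threshold was 0.05 for p-values after Benjamini-Hochberg adjustment. Half-lives were fitted by least squares (Python 3.11.15, numpy 2.4.6, pandas 2.3.3) with the filters of the study's methods. Both fits were run on simulated data before use. The slope fit recovered 43.5% of 200 slopes planted among 5163 genes, and 3.33% of its calls were false. That simulation drew straight lines with noise independent between genes. Steps between the measured libraries were shared by many genes, so the slope simulation gives no error rate for the calls made here. The half-life simulation drew single-exponential decays and gave half-lives at a median of 1.00 times the true ones. Because the measured courses depart from a single exponential, it cannot show how well the half-lives and their standard errors hold here.

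Fragments were estimated from FPKM steps of genes with at least 900 coding bases. Per library, 87.1% to 93.7% of low values lay within 0.1 of a whole number of fragments. The depths and the length offset were chosen to make this share high, so it is not a check of the estimates. The p-values measure scatter around a line over time, not replicate error.

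The members and lists were chosen with earlier results of these data known. A list symbol, NOT1, had no match. Named members are, per subunit, the 3 most abundant at 0 min, the 3 shortest and 3 longest half-lives and the 3 steepest and 3 weakest slopes, and the members with 2 or more motif matches. TUF1, COX17, CYT2 and PUF3 were also named by rule. RSM22, POP2, HIS3, single genes of the comparison lists, the members whose calls depended on a library and those singled out by an overlap, a residual or a level above 0 min were named after their values were seen. Alternatives were other scalings, pseudocounts, filters, time ranges, decay models and motif windows, and leaving out each library. Levels at 8, 10, 30 and 45 min without scaling and the background of genes within the range of the members at 0 min were added after seeing the data.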

Additional observations from a re-analysis of the deposited data

How the results depend on the processing

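No paired analysis was possible because there is a single library at each time. The fall of the members kept its direction under every alternative for 55 of the 60. Scaling to equal totals of yeast FPKM left 25 members that fell and 30 with a half-life (median 34.8 min), put the median level at 60 min at 57.9%, and turned positive the uncalled slopes of MRPL16 (0.000457), MRPL28 (0.0655), RSM18 (0.0162), MRPL38 (0.0127) and MRPS17 (0.0380 log2 units per 10 min). Without scaling the median half-life was 25.5 min and the median level at 60 min 43.4%. A scaling factor moves all genes of a library alike, so the ratio of the members to all genes at 60 min (0.851) cannot change with it. The median half-life depended on the model, at 25.5 min when the start was fitted, 37.6 min in a log-linear fit and 11.8 min over 0 to 20 min. A residual limit of 0.07 left 4 members with a half-life. With each library left out, 51 to 56 members fell, 46 to 55 had a half-life and the median was 14.7 to 18.5 min. On the other strand the motif was found in 11 members. With 1 library per time and few estimated fragments for some of the shortest mRNAs, single levels carry an error that these data do not give.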
